A study of Mus musculus with 15 samples.

Results

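Heat shock proteins and chaperones were followed in whole-brain RNA-seq data of 15 male wildtype C57BL/6J mice. The set holds 10 genes, chosen by symbol: Hspa1a, Hspa1b, Hspa8, Hspa5, Hsph1, Dnajb1, Hsp90aa1, Hspb1, Hspd1 and Hspe1. All 10 were found among the 43629 genes listed for each mouse, and all 10 were among the 15864 genes that passed the filter on low counts. Mice were fed either ad libitum (AL, chow always present) or every other day (EOD, chow present on alternate days, called intermittent fasting in the sample labels). The labels give ages of 3 months (young) and 24 months (old), whereas the study's text gives a lower age for the old mice at the start of its analyses. EOD had begun in early adulthood, before the age of the young group, so young EOD mice had fasted for a short time and old EOD mice for most of their adult life. AL groups held 4 young and 4 old mice and EOD groups 3 young and 4 old mice, all from a single cohort, and each mouse gave its own library. A whole brain mixes neurons, glia and vessels, so a change in RNA per cell and a change in the number of cells of a type cannot be told apart.

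Chaperones bind unfolded or partly folded proteins and help them reach or keep their shape. HSP70 proteins work in cycles of ATP binding and hydrolysis, which J-domain proteins start and nucleotide exchange factors end. HSP90 completes the folding of many kinases and steroid receptors, small heat shock proteins hold unfolded clients without ATP, and the mitochondrial chaperonin encloses clients in a barrel. When unfolded proteins accumulate in the cytosol, heat shock factors induce the inducible members of these families through heat shock elements, inverted repeats of the letters GAA. In the endoplasmic reticulum a separate unfolded protein response, driven by ATF6, XBP1 and PERK, raises Hspa5 and the other folding enzymes of that compartment. In brain the constitutive members are abundant, and the inducible HSP70 genes are low unless the tissue is stressed.

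Promoter stretches of 5 genes are shown because they carry the elements by which cytosolic and endoplasmic reticulum chaperones are known to be induced. Each line gives 30 bases, 5′ to 3′ on the gene's strand, from RefSeq (GRCm38.p6), and the capitals mark the match to the element searched for.
Hspa1a: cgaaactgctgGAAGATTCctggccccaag
Hspb1: aGAAGTTTCcagatgggggcaGAACCTTCc
Hsph1: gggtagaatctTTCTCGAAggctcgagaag
Hspe1: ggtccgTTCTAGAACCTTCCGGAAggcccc
Hspa5: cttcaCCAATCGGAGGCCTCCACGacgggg
The Hspa1a stretch is chr17:34972242-34972271 on the minus strand, with its element 104 bases before the gene's start. The Hspb1 stretch, chr5:135887801-135887830 on the plus strand, holds 2 matches. The Hsph1 stretch, chr5:149636351-149636380 on the minus strand, lies just before RefSeq's start and mostly inside the Ensembl gene. The Hspe1 stretch, chr1:55088053-55088082 on the plus strand, lies before the start of Hspe1 and inside the annotated span of Hspd1. RefSeq gives Hspd1 a start at 55087932 and another at 55088243. From the former, these 2 genes are read in opposite directions with 215 bases between their starts, so that they share this stretch. From the latter, the stretch lies after the start, inside Hspd1. The Hspa5 stretch is chr2:34772020-34772049 on the plus strand, upstream of RefSeq's start and inside the Ensembl gene.

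Windows of 300 bases, 250 before the start and 50 after it, were given for 8 of the 10 genes. Hspa8 and Hsp90aa1 had none. A heat shock element of 2 units (GAANNTTC or TTCNNGAA, which are the same on both strands) was found in 17% of the 27025 genes with a window, and matched Hspa1a, Hspa1b, Hsph1, Hspb1, Hspd1 and Hspe1. An element of 3 units (GAANNTTCNNGAA or TTCNNGAANNTTC, which contains 2 overlapping matches of the shorter one) was found in 0.662% of genes, and matched Hspd1 and Hspe1 before the start and Hsph1 after it. For Hspd1 the matches to both elements lay in the window of the start at 55087932, and the window of the start at 55088243 held none. The endoplasmic reticulum stress element (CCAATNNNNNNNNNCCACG, searched on both strands) was found in 37 genes, or 0.137%, and Hspa5 was one of them. Neither element was found in the Dnajb1 windows. These matches describe letters only and were not measured as binding sites.

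Hspa1a and Hspa1b, the inducible cytosolic HSP70 genes, lie next to each other on chromosome 17 and are nearly the same gene. The 250 bases before each start (chr17:34972157-34972406 and chr17:34959239-34959488, both minus strand) were 98.8% identical. The 3 bases that differ are in capitals.
Hspa1a: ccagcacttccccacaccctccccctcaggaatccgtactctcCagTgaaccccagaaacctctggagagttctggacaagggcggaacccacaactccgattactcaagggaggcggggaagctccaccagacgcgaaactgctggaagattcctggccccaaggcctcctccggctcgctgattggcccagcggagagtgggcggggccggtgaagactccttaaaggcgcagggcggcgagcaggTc
Hspa1b: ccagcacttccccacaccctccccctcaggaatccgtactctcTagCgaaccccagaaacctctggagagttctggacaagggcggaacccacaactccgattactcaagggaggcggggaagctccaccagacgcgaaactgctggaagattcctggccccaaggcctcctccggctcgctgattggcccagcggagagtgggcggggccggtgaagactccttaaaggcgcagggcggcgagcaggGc
Reads of 50 bases were counted only where they mapped well to one place. Of all 50-base stretches of the annotated transcript, 60.3% of Hspa1a and 62.3% of Hspa1b also occurred in another gene, nearly all in the partner gene. The share was 73.2% for Hspa8, 58.5% for Hsp90aa1, 51.6% for Hspb1, 44.8% for Hspd1 and 36.1% for Hspe1, mostly with pseudogenes, and it was 0.407% for Dnajb1 and 0 for Hspa5 and Hsph1. Counts of the genes with a high share therefore rest on part of the transcript, and the split of reads between Hspa1a and Hspa1b is uncertain.

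The deposited counts cover the exons of each gene in Ensembl release 79 on GRCm38, the build of the coordinates given here. Of the HSP70 genes, Hspa1a (ENSMUSG00000091971) spans chr17:34969190-34972156, Hspa1b (ENSMUSG00000090877) chr17:34956436-34959238, Hspa8 (ENSMUSG00000015656) chr9:40800984-40805200 and Hspa5 (ENSMUSG00000026864) chr2:34771970-34777547. The exchange factor gene Hsph1 (ENSMUSG00000029657) spans chr5:149614287-149636376, and the J-domain gene Dnajb1 (ENSMUSG00000005483) chr8:83608175-83611902. Hsp90aa1 (ENSMUSG00000021270) spans chr12:110690605-110702728 and Hspb1 (ENSMUSG00000004951) chr5:135887919-135889563. The mitochondrial chaperonin genes Hspd1 (ENSMUSG00000025980) at chr1:55077835-55088243 and Hspe1 (ENSMUSG00000073676) at chr1:55088132-55091307 overlap on opposite strands, and the counting used strand.

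Counts on genes totalled 5198748 to 13610729 per mouse. The third young AL mouse stood apart: it had the largest total but the fewest genes with a count (17280, against 19054 to 20880 in the others), and its median correlation with the other mice across genes was 0.957, against 0.980 to 0.987. Results that rest on it are given with and without it. Libraries ran in 3 sequencing lanes, and lane 3 held no young EOD mouse. Markers of neurons, astrocytes, oligodendrocytes and microglia were counted in every mouse. Pituitary markers were near 0 in most mice but summed to 982.4 CPM (counts scaled to the library's total) in the fourth old AL mouse.

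Levels were divided by the length of all annotated exons of a gene. On this scale Hspa5 (BiP, the HSP70 of the endoplasmic reticulum) was the highest of the 10 mRNAs, with 99.5 ± 26.5 CPM per kilobase (mean ± SD, n = 15 mice). Hspa8, the constitutive cytosolic HSP70, followed with 64.4 ± 6.77, then Hsph1, an HSP110 exchange factor, with 59.1 ± 4.98 and Hsp90aa1, the inducible form of cytosolic HSP90, with 58.4 ± 3.35. The ranges of these 4 genes overlapped from each one to the next. Their longest protein-coding transcripts are shorter than their exons together. The lengths are 3672 against 4229 bases for Hspa5, 2394 against 4156 for Hspa8, 3802 against 7042 for Hsph1 and 3281 against 3931 for Hsp90aa1. The gaps between these genes therefore depend on the length used. Levels were also not corrected for the stretches that occur in another gene. These made up 73.2% of Hspa8 and 58.5% of Hsp90aa1, against 0 of Hspa5 and Hsph1. The order given here, with Hspa5 first, therefore holds on this scale only. Hspd1, the subunit of the mitochondrial chaperonin barrel, had 31.6 ± 4.37 CPM per kilobase, and Dnajb1, a J-domain partner of HSP70, had 27.3 ± 3.68. These overlapped each other and lay below all 4 genes above. Hspe1, the lid of the mitochondrial chaperonin, had 11.4 ± 1.77 and overlapped no neighbour. At the bottom, with overlapping ranges, were 3 of the stress-inducible genes: Hspb1 (HSP25, a small heat shock protein) with 1.29 ± 0.651, Hspa1b with 1.28 ± 0.446 and Hspa1a with 0.851 ± 0.296. These rest on 2 to 55 counts per mouse, and the share of each transcript that can be counted differs, as given above.

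**Figure D1:**
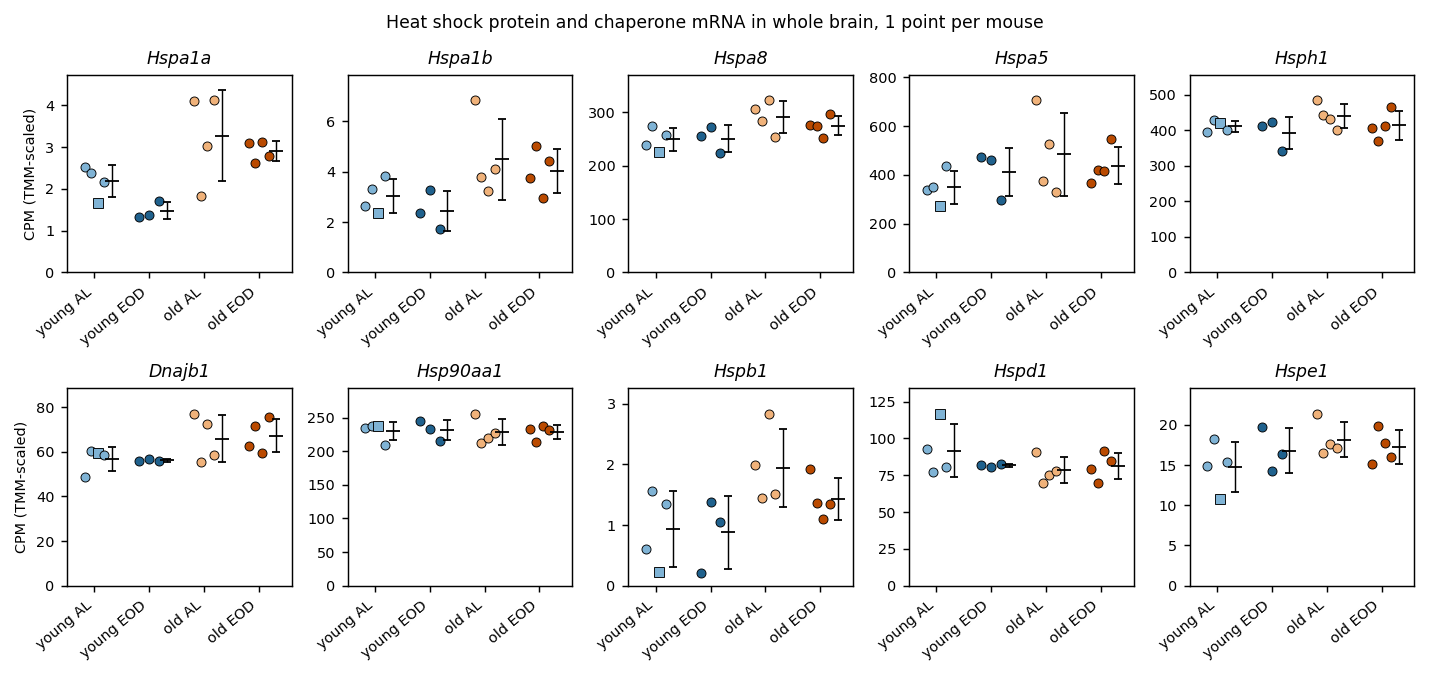
Level of each of the 10 mRNAs in CPM on TMM-scaled library sizes (vertical axes, from 0) in the 4 groups, with 1 point per mouse, the square marking the third young AL mouse, and the bars beside the points giving mean ± SD. Old groups sit above young groups for Hspa1a in EOD mice (2.62 to 3.13 against 1.34 to 1.71 CPM), whereas the groups coincide for Hsp90aa1.

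The first question was whether chaperone mRNAs differed with age in mice fed AL. By edgeR (quasi-likelihood test, Benjamini-Hochberg adjustment over all genes tested) 0 of the 10 genes passed an FDR of 0.1, where 1.09% of all genes did. DESeq2 also called 0. Without adjustment, 4 of 10 genes had a p below 0.05 in edgeR, all higher in old mice, where 5.14% of all genes had such a p and were higher. The 4 were Hspa1a, Hspa1b, Hspa8 and Hspa5, the HSP70 genes among the 10. The rest of that family did not share this. Of 19 other HSP70 and HSP110 genes and exchange factors, 9 had an estimate above 0, with a median log2 fold change of −0.00224. Of these 19, 1 had an unadjusted p below 0.05 in edgeR. In DESeq2, 1 of the 10 had such a p. In edgeR the number moved with single mice: 1 of 10 without the third young AL mouse (Hspa8), 2 without the first old AL mouse (Hspa8 and, lower in old mice, Hspd1), 2 without the third old AL mouse (Hspa1a and Hspa1b) and 6 without the second young AL mouse (5 of them higher in old mice). The estimate was above 0 for 8 of the 10, against 47.6% of all genes, with a median log2 fold change of 0.26 against −0.01 for all genes. For none of the 10 did old and young AL mice separate completely (0 of 10, where 2.98% of all genes separated with old mice higher and 1.58% with old mice lower).

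Hspa1a was at 2.53, 2.38, 1.66 and 2.18 CPM in the young AL mice and at 4.10, 1.84, 3.03 and 4.12 CPM in the old AL mice. Of the old mice, 3 lay above every young mouse and 1 lay among them. The log2 fold change was 0.61 (SE 0.276, edgeR adjusted p = 0.489). It was 0.51 without the third young AL mouse. Within lanes the difference of log2 CPM was 0.694 in lane 1, 0.459 in lane 2 and 0.86 in lane 3.

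Hspa1b was at 2.65, 3.30, 2.34 and 3.85 CPM in young AL mice and at 6.84, 3.81, 3.22 and 4.12 CPM in old AL mice. The first old mouse was far above the rest, and the other 3 reached into or just past the young range. Old AL mice were higher by 0.57 on the log2 scale (SE 0.276, edgeR adjusted p = 0.525), and without that first old mouse by 0.30 (SE 0.28).

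Hspa8, which strips clathrin from vesicles at synapses besides folding new proteins, was at 239.1, 273.7, 225.6 and 258.4 CPM in young AL mice. In old AL mice it was at 306.4, 283.8, 322.5 and 253.9 CPM. Again 3 old mice were above all young ones, and the fourth was among them. This gave a log2 fold change of 0.23 (SE 0.084, edgeR adjusted p = 0.362), with differences of 0.26, 0.423 and −0.0254 in lanes 1, 2 and 3. The negative value is that of the fourth old mouse, which carried the pituitary markers. Their part in the result was not tested.

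Hspa5 was at 339.0, 349.3, 270.7 and 435.6 CPM in young AL mice and at 705.7, 373.7, 524.7 and 330.5 CPM in old AL mice. The first and the third old mouse were above every young mouse, and the other 2 were within the young range. The log2 fold change was 0.47 (SE 0.193, edgeR adjusted p = 0.416). It fell to 0.23 without the first old AL mouse and rose to 0.63 without the fourth, the lowest and the highest value when any one mouse was left out. In an edgeR fit without the filter on low counts, Hspa5 passed as the only one of the 10, with the estimate still at 0.47 but an SE of 0.0788. That fit drew the error of every gene almost wholly to the trend over all genes (2170 prior degrees of freedom, against 9.81 with the filter). It set the quasi-likelihood dispersion of Hspa5, the spread left between mice of a group, to 0.742, where the mice themselves gave 7.77. Its adjusted p (8.81e-07) therefore leaves out most of the spread of Hspa5 between mice. Within lane 3 the Hspa5 difference ran the other way (−0.398, against 1.04 and 0.71 in lanes 1 and 2), and the lane 3 pair again holds the fourth old mouse.

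Without the third young AL mouse the estimates of Hspa1b, Hspa8 and Hspa5 were 0.47, 0.19 and 0.37.

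Among the members that are not HSP70 genes, no unadjusted p was below 0.05 in edgeR. Dnajb1 was at 48.6 to 60.2 CPM in young and 55.4 to 77.1 CPM in old AL mice (log2 fold change 0.21, SE 0.107). Hsph1, with 396.7 to 428.1 against 400.9 to 484.6 CPM, differed by 0.10 on the log2 scale (95% interval −0.07 to 0.26). Hsp90aa1 differed by −0.01 (95% interval −0.16 to 0.14, or folds of 0.898 to 1.1). Hspb1 had the highest estimate, 1.01 (SE 0.497), but from 3 to 17 counts per young and 11 to 18 per old mouse. Without the third young AL mouse it was 0.64 (SE 0.416), and without the second 1.38.

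The mitochondrial chaperonin genes, which share the promoter stretch shown above when Hspd1 is read from the start at 55087932, had estimates of opposite sign in AL mice. Hspd1 was at 92.7, 77.1, 116.8 and 80.4 CPM in young AL mice and 91.0, 69.8, 75.1 and 77.8 CPM in old ones, a log2 fold change of −0.23 (SE 0.115). Hspe1 was at 14.8, 18.2, 10.7 and 15.4 CPM in young and 21.4, 16.5, 17.6 and 17.2 CPM in old ones, a log2 fold change of 0.30 (SE 0.153). The third young AL mouse was at once the highest of all 15 for Hspd1 and the lowest for Hspe1. Without it the estimates were −0.08 and 0.17.

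**Figure D2:**
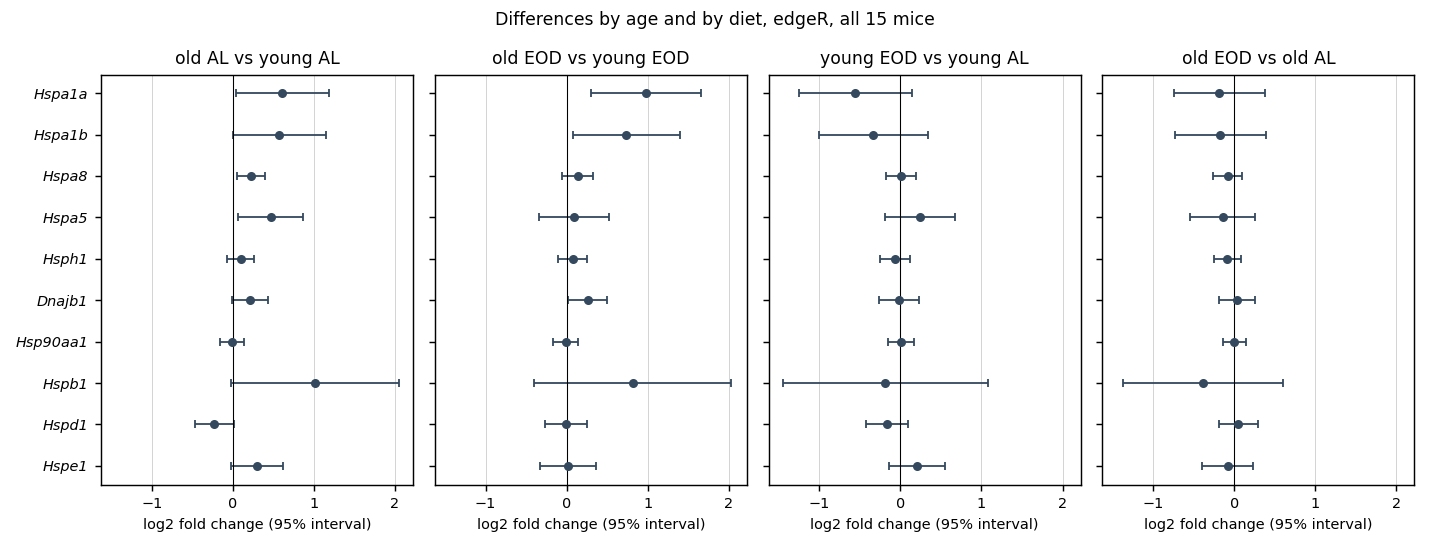
Log2 fold change (horizontal axis) of each of the 10 genes in 4 comparisons from the edgeR fit of all 15 mice, with points for estimates and bars for 95% intervals. The intervals of Hspa1a and Hspa1b lie above 0 in both age comparisons, and every interval of both diet comparisons includes 0.

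The same age comparison in mice fed EOD gave 0 of 10 genes past the FDR of 0.1 in edgeR and in DESeq2, where 0.29% of all genes passed in edgeR. Of the 10, 3 had an unadjusted p below 0.05 (Hspa1a, Hspa1b and Dnajb1, all higher in old mice), where 3.06% of all genes had such a p and were higher. Hspa1a alone had such a p without the first or the third young EOD mouse and without the second or the fourth old EOD mouse. The estimate was above 0 for 8 of 10, against 49.9% of all genes, with a median log2 fold change of 0.11 against −0.00036 for all genes. For Hspa1a and Dnajb1 every old mouse was above every young mouse, a separation seen in 4.75% of all genes.

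Hspa1a was at 1.34, 1.38 and 1.71 CPM in young EOD mice, from 13, 8 and 13 counts. In old EOD mice it was at 3.10, 2.62, 3.13 and 2.79 CPM, from 37, 23, 34 and 29 counts. The groups did not overlap, but counts this low leave the value of each mouse imprecise. The log2 fold change was 0.98 (SE 0.328, 95% interval 0.30 to 1.66), with an edgeR adjusted p of 0.597. It was 1.1 within lane 1 and 0.697 within lane 2, and lane 3 held no young EOD mouse.

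Dnajb1 was at 55.7, 56.7 and 56.0 CPM in young EOD mice and at 62.7, 71.4, 59.5 and 75.5 CPM in old EOD mice. The young values, from 542, 330 and 426 counts, were almost identical, and the lowest old mouse was just above them. Counting error was not computed, so this closeness is a description of the values only. The difference was 0.26 on the log2 scale (SE 0.117, edgeR adjusted p = 0.835). Hspa1b was at 2.36, 3.27 and 1.71 CPM against 3.77, 5.01, 2.95 and 4.43 CPM, with 1 old mouse inside the young range, and a log2 fold change of 0.74 (SE 0.319, edgeR adjusted p = 0.821).

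Hspa5 did not differ with age in EOD mice beyond the spread: it was at 473.7, 462.0 and 297.1 CPM in young and at 368.4, 421.7, 415.3 and 546.7 CPM in old ones (log2 fold change 0.09, 95% interval −0.34 to 0.53). Hspa8 had an estimate of 0.14 (SE 0.0911) and Hspb1 of 0.81 (SE 0.587). Hsph1, Hsp90aa1, Hspd1 and Hspe1 were between −0.01 and 0.08.

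Averaged over both diets, an age difference chosen after the data had been seen, Hspa1a passed the FDR of 0.1 as the only one of the 10. Its log2 fold change was 0.80 (SE 0.214, edgeR adjusted p = 0.0692), and 2.3% of all genes passed. This call depended on single mice. It was kept without any one young AL mouse, with edgeR adjusted p from 0.065 to 0.0891, and without the second old AL mouse, but lost without any one young EOD or old EOD mouse and without the first, the third or the fourth old AL mouse, with adjusted p up to 0.215. Without the fourth old AL mouse Hspa8 passed in its place (0.22, SE 0.0605, edgeR adjusted p = 0.0942). An unadjusted p below 0.05 was found for 5 of the 10 genes (Hspa1a, Hspa1b, Hspa8, Dnajb1 and Hspb1), against 11.7% of all genes.

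The next question was whether EOD altered chaperone mRNAs. The diet comparisons use the same mice as the age comparisons, and the values of one are not independent of those of the other. In young mice 0 of 10 genes passed the FDR of 0.1, where 0% of all genes did in edgeR, and 0 of 10 had an unadjusted p below 0.05, where 4.14% of all genes did. The estimate was above 0 for 4 of 10, against 49.2% of all genes. Hspa1a had the estimate farthest from 0, −0.56 (95% interval −1.25 to 0.14), and its highest young EOD mouse (1.71 CPM) was just above the lowest young AL mouse (1.66 CPM), the third. Without that mouse the estimate was −0.67 (SE 0.324, edgeR unadjusted p = 0.0509). Hspa5 had an estimate of 0.24 (95% interval −0.19 to 0.67), and the estimates of Hspa8, Dnajb1 and Hsp90aa1 were between −0.02 and 0.01.

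In old mice, where EOD had lasted most of adult life, again 0 of 10 genes passed the FDR of 0.1 (0% of all genes) and 0 of 10 had an unadjusted p below 0.05 (2.58% of all genes). The estimate was above 0 for 3 of 10, against 50.8% of all genes, and the median log2 fold change was −0.09, against 0.00261 for all genes. Intervals were narrowest for Hsp90aa1 (−0.14 to 0.15) and Hsph1 (−0.25 to 0.08), and wide for Hspa1a (−0.75 to 0.38) and Hspb1 (−1.38 to 0.60). DESeq2 called 0 of the 10 genes in either diet comparison. In the test of whether the age difference depended on diet, 0 of 10 passed the FDR (0% of all genes) and 0 of 10 had an unadjusted p below 0.05, where 2.28% of all genes had one. The estimate was above 0 for 4 of 10, against 51.5% of all genes. Hspa5 came nearest, with an interaction of −0.38 (SE 0.283, edgeR unadjusted p = 0.195). The difference between its estimates in AL and EOD mice was therefore not shown.

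A wider list of chaperones was read beside the 10 genes: heat shock factors, other HSP70 and HSP110 proteins with their exchange factors, HSP90 proteins with their co-chaperones, J-domain proteins, small heat shock proteins, cytosolic chaperonin subunits, the endoplasmic reticulum list, mitochondrial proteases and the serpin chaperone. Of 125 genes listed, 124 had a row and 117 were tested. With age in AL mice 1 gene of 117 passed, Cryab, where 1.09% of all genes did. Cryab encodes αB-crystallin, a small heat shock protein that is abundant in oligodendrocytes. It was at 69.9, 74.6, 69.6 and 77.5 CPM in young AL mice and at 116.3, 95.9, 119.2 and 85.7 CPM in old ones. Every old mouse was above every young one. The log2 fold change was 0.51 (SE 0.107, edgeR adjusted p = 0.0195), and leaving out the third old AL mouse raised the adjusted p to 0.108. Without the third young AL mouse the estimate was 0.49.

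In EOD mice Cryab was at 78.96, 78.4 and 64.4 CPM in young and at 92.8, 90.9, 97.7 and 119.2 CPM in old ones. The groups again did not overlap, with a log2 fold change of 0.44 (SE 0.117). The edgeR adjusted p was 0.248, whereas DESeq2 gave 0.0952. The summed level of 4 oligodendrocyte markers was 4639 to 5467 CPM in young AL and 5454 to 6112 CPM in old AL mice, and 5103 to 5539 against 5246 to 5914 CPM in young and old EOD mice. Its part in the Cryab difference was not tested. Averaged over diets, Cryab (0.47, SE 0.0794, edgeR adjusted p = 0.00151), Hspb8 (0.32, SE 0.0909, adjusted p = 0.0907), another small heat shock protein, and P4hb (0.16, SE 0.0434, adjusted p = 0.0699), a protein disulfide isomerase of the endoplasmic reticulum, passed.

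No other gene of the wider list passed in any comparison. Those with the smallest p after Cryab in the age comparison of EOD mice were Dnajc9 (0.39, SE 0.112), a histone chaperone with a J domain, and St13 (0.17, SE 0.0668), the HSP70 cofactor Hip. For diet in young mice they were Dnajc9 (−0.32, SE 0.112), Dnajc4 (−0.52, SE 0.206) and Canx (0.14, SE 0.0676), the lectin chaperone calnexin. For diet in old mice they were Dnajc13 (0.19, SE 0.0876), an endosomal J-domain protein, Dnajc30 (−0.25, SE 0.133), which is mitochondrial, and Hspa13 (0.15, SE 0.0912). For the interaction they were Dnajc9 (0.48, SE 0.151), the ribosome-associated Dnajc2 and the mitochondrial exchange factor Grpel2. All had an edgeR adjusted p of 0.371 or more.

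By role, 13 of 16 endoplasmic reticulum genes had an estimate above 0 with age in AL mice, with a median log2 fold change of 0.15, and 4 had an unadjusted p below 0.05, including Sdf2l1 (0.75, SE 0.298), Xbp1 (0.49, SE 0.182) and Calr (0.28, SE 0.094). Over all genes 47.6% had an estimate above 0 in this comparison, and 5.14% had such a p and were higher. None of the 16 passed the FDR. In the fit without the filter on low counts, whose errors are described above for Hspa5, Sdf2l1, Xbp1 and Calr did (edgeR adjusted p = 0.0219, 2.82e-05 and 0.0307). In EOD mice 11 of 16 were above 0, against 49.9% of all genes, with a median of 0.06. HSP90 proteins and co-chaperones had 15 of 16 estimates above 0 in AL mice and 12 of 16 in EOD mice, with medians of 0.08 and 0.09. J-domain proteins had 16 of 41 and 24 of 41 above 0. Other HSP70 and HSP110 proteins with their exchange factors had 9 of 19 above 0 in AL and 9 of 19 in EOD mice, with medians of −0.00224 and −0.00404. The small heat shock proteins of the wider list, Cryab and Hspb8 among them, had 2 of 5 and 3 of 5 above 0, with medians of −0.149 and 0.198. The cytosolic chaperonin subunits stayed within −0.08 and 0.13 in both age comparisons. The heat shock factor gene Hsf1 had estimates of 0.11 (SE 0.175) in AL and 0.21 (SE 0.192) in EOD mice.

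The 10 genes differed in how much they varied between mice of one group. For Hspa5 the SD within groups was 0.36 on the log2 CPM scale, above that of 99.2% of the 500 genes nearest to it in level. For Hsp90aa1 it was 0.0928, above 38.6% of its 500 neighbours. Hspd1 was above 86.6% of its neighbours with all 15 mice and above 74% without the third young AL mouse. The first old AL mouse had the highest level of all 15 mice for 6 of the 10 genes (Hspa1b, Hspa5, Hsph1, Dnajb1, Hsp90aa1 and Hspe1), and the third young EOD mouse the lowest for 3 (Hspa1b, Hspa8 and Hsph1).

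To describe which genes rose and fell together between mice of the same group, deviations of log2 CPM from the group means were correlated over the 14 mice without the third young AL mouse. The p-values, from all 20736 exact permutations of mice within groups and two-sided, were an addition made once the data had been seen. Of 45 pairs among the 10 genes, 37 had r above 0, with a median of 0.292. Against all other tested genes the median r of single members lay between −0.0165 and 0.00434. The highest were Hspa5 with Hspa8 (r = 0.745, rho = 0.719), with Hsph1 (r = 0.738, rho = 0.657) and with Dnajb1 (r = 0.726, rho = 0.679), and Hspa8 with Hsph1 (r = 0.708, rho = 0.662) and Dnajb1 (r = 0.703, rho = 0.714). After adjustment over the 45 pairs none had a p below 0.05 by exact permutation (adjusted p = 0.188 for each of these 5, and 0.222 for rho). With the 2 mice farthest from the median left out, the r of these 5 pairs ranged from 0.513 to 0.776. Hspa1a correlated with Hspa1b at r = 0.076 and with Hspa8 at −0.265. Hspa1a rests on 8 to 49 counts per mouse, so these values cannot show whether it varies apart from the other 2 genes. With sequencing lane also removed, 37 of the 45 pairs were above 0. Each lane held too few mice for a value of its own.

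**Figure D3:**
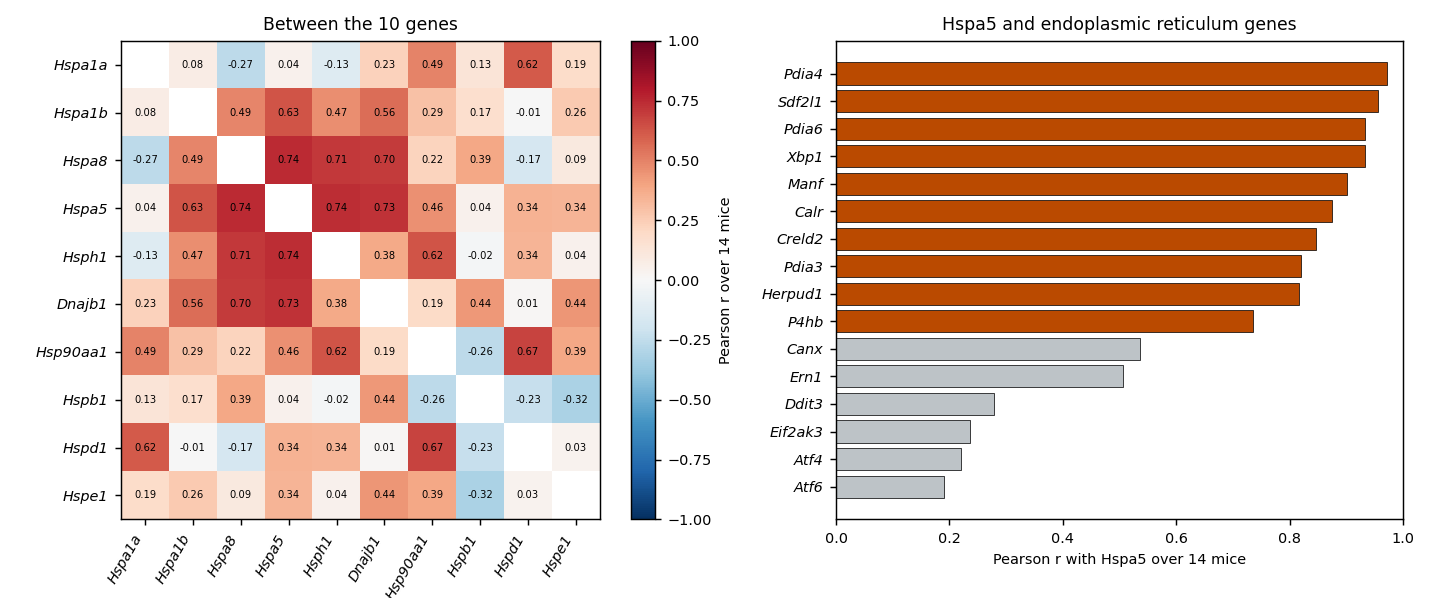
Pearson r of deviations from group means over 14 mice, between each pair of the 10 genes (left, colour scale and printed values) and between Hspa5 and 16 genes of the endoplasmic reticulum (right, horizontal axis), with orange bars for an exact permutation p below 0.05 after adjustment over 32 relations. Of the pairs among Hspa5, Hspa8, Hsph1 and Dnajb1, only Hsph1 with Dnajb1 (0.38) is below 0.7, and 10 of the 16 endoplasmic reticulum genes pass with Hspa5.

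Hspa5 rose and fell with genes of its own compartment. Over the same 14 mice its r was above 0 with all 16 genes of the endoplasmic reticulum list, with a median of 0.818. Of all other tested genes, 48.4% had r above 0 and 2.6% had r above 0.7. With 10 of the 16 the exact permutation p, adjusted over 32 relations, was below 0.05. They were the disulfide isomerases Pdia4 (r = 0.972, rho = 0.956), Pdia6 (r = 0.934, rho = 0.916), Pdia3 (r = 0.82, rho = 0.811) and P4hb (r = 0.735, rho = 0.675), the Hspa5 partner Sdf2l1 (r = 0.956, rho = 0.916), the lectin chaperone Calr (r = 0.875, rho = 0.864), the secreted factors Manf (r = 0.901, rho = 0.93) and Creld2 (r = 0.847, rho = 0.881), Herpud1 of the degradation pathway (r = 0.816, rho = 0.837) and the response's transcription factor Xbp1 (r = 0.933, rho = 0.921). Adjusted p for r ranged from 0.00154 (Manf) to 0.0429 (P4hb), and the adjusted p for rho of P4hb was 0.069. Leaving out the 2 mice farthest from the median of Hspa5 gave r from 0.575 (P4hb) to 0.963 (Pdia4), and removing sequencing lane gave 0.734 to 0.972. The 6 others were Canx (r = 0.537), Ern1 (r = 0.506), Ddit3 (r = 0.278), Eif2ak3 (r = 0.236), Atf4 (r = 0.22) and Atf6 (r = 0.19), the last 5 being sensors or transcription factors of the unfolded protein response. With the third young AL mouse included, r of the 10 ranged from 0.551 (P4hb) to 0.951 (Sdf2l1). Of the 6 others, Ddit3 (r = −0.0452) and Eif2ak3 (r = −0.0753) were then below 0.

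For Hspa5 single mice lay farther from their group mean than the age difference of 0.47 in AL mice. The deviation of the first old AL mouse from its group mean was 0.61 for Hspa5 and 0.52 for Pdia4, and that of the fourth was −0.48 and −0.45, on the log2 CPM scale. Of the young EOD mice, the first had deviations of 0.24 and 0.32 and the third of −0.44 and −0.48.

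**Figure D4:**
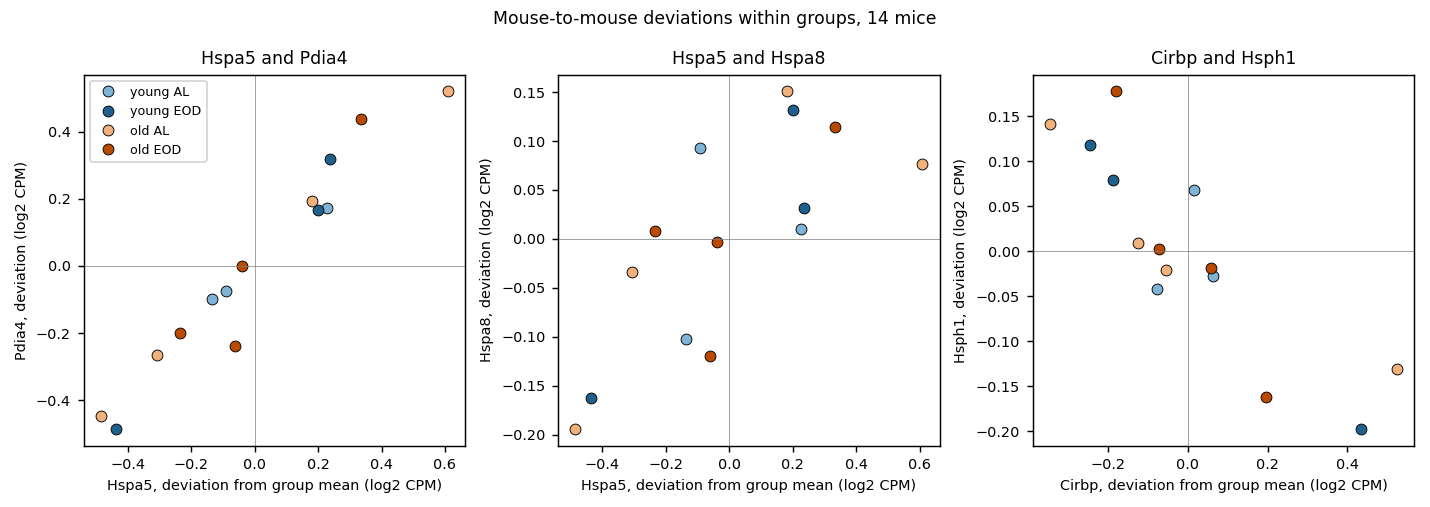
Deviations of log2 CPM from the group mean in 14 mice, coloured by group, for Hspa5 against Pdia4, Hspa5 against Hspa8 and Cirbp against Hsph1. Points rise along a line for Pdia4 (r = 0.972), rise with more scatter for Hspa8 (r = 0.745) and fall for Hsph1 against Cirbp (r = −0.867).

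Hsp90aa1 was correlated with the 16 other HSP90 proteins and co-chaperones in the same family of 32 relations. Of these, 13 had r above 0, with a median of 0.316, and 2 had an adjusted p below 0.05 by exact permutation: St13 (r = 0.869, rho = 0.833, adjusted p = 0.00908) and Hsp90b1, the HSP90 of the endoplasmic reticulum (r = 0.79, rho = 0.771, adjusted p = 0.0139). Without the 2 farthest mice r was 0.779 and 0.748. With Hsp90ab1, the constitutive cytosolic HSP90, r was 0.304.

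Cirbp and Rbm3, RNA-binding proteins whose mRNAs rise when tissue cools, were read beside the 10 genes because heat shock genes respond to temperature in the opposite sense. In 20 relations, 1 had an adjusted p below 0.05 by exact permutation: Cirbp with Hsph1 (r = −0.867, adjusted p = 0.0174, rho = −0.855, adjusted p = 0.0414). Without the 2 mice farthest from the median of Cirbp r was −0.835, with the third young AL mouse included it was −0.802, and with sequencing lane removed it was −0.902. Of the 10 relations of Cirbp, 8 had r below 0, among them Hspa5 (r = −0.773, adjusted p = 0.13) and Hspa8 (r = −0.687, adjusted p = 0.202), which did not pass by exact permutation. The other 2 were Hspa1a (r = 0.3) and Hspb1 (r = 0.11). Of the 10 relations of Rbm3, 7 had r below 0 and none passed. With Hsph1 its r was −0.446, and 0.0279 without the 2 mice farthest from the median of Rbm3. The relation of Rbm3 with the smallest exact permutation p was positive, with Hspa1a (r = 0.402, p = 0.0273, adjusted p = 0.182), and Hspd1 (r = 0.195) and Hspb1 (r = 0.161) were also above 0. With the third young AL mouse included, r of Rbm3 was −0.104 with Hspa1a, 0.648 with Hspd1 and −0.405 with Hspb1. Cirbp was lowest in the first old AL mouse (29.5 CPM) and highest in the third young EOD mouse (62.8 CPM), the mice with the largest numbers of highest and lowest member levels. Rbm3 was at 11.1 CPM in the former, inside the range of the other old AL mice, and at 17.2 CPM in the latter, the highest of its group. The fourth old AL mouse had the highest Hspa1a of all mice, with Cirbp at 54.05 CPM. Body temperature was not among the data used here, and its part was not tested. Neither gene passed the FDR in any comparison. Rbm3 was higher in every old EOD mouse (13.7 to 15.5 CPM) than in any old AL mouse (10.6 to 12.1 CPM), with a log2 fold change of 0.37 (SE 0.225, edgeR adjusted p = 1). Such a separation, with old EOD mice higher, was seen in 1.23% of all genes and in 0 of the 10 members.

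The single gene most alike to each member among all genes tested was found by the highest r over the same 14 mice. It was Pdia4 for Hspa5, the nuclear import receptor Kpnb1 for Hsph1 (r = 0.957), Sacm1l for Hspd1 (r = 0.951), Colgalt1 for Hspa1b (r = 0.944), Tmed4 for Dnajb1 (r = 0.935), Wdr47 for Hsp90aa1 (r = 0.927), Sertad3 for Hspb1 (r = 0.916), the mRNA exporter Nxf1 for Hspa8 (r = 0.904), Gm14295 for Hspa1a (r = 0.903) and Layn for Hspe1 (r = 0.843). Each was picked as the highest over all tested genes that are no members, so that high values are found for any gene. With the third young AL mouse included, r fell to 0.128 for Hspd1 and 0.631 for Hspa1a and stayed at 0.79 or above for the other 8.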

How the data were processed

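Whole-brain RNA of the 15 mice had been read as single ends of 50 bases. Per the labels, the study's methods and the file headers, the authors trimmed reads, mapped them to GRCm38 with STAR and assigned them to genes of Ensembl release 79 by featureCounts 1.5.0-p1 (primary alignments, mapping quality of at least 5, reverse-stranded). The deposited values are raw counts per gene and were not normalized. Symbols were assigned to 42462 of 43629 genes by Ensembl identifier, and 17360 genes had no count in any mouse.

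From these counts, CPM were computed on TMM-scaled library sizes. One fit of the 4 group means in edgeR 4.0.16 (R 4.3.3, filterByExpr, quasi-likelihood F test) gave every comparison, with Benjamini-Hochberg adjustment over 15864 genes and an FDR of 0.1. SEs are the size of the estimate over the root of its F statistic. For correlations, log2 CPM were taken with 2 as the prior count. DESeq2 1.42.0, the tool of the study's methods, was one alternative, and the others are named in the closing section. The scripts' edgeR calls were checked on simulated data. No pair of libraries of one group had identical counts. The labels make each library a separate mouse.

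The members and gene lists were chosen with earlier results of these data known. Genes named from the wider list are those past the FDR in a comparison or, where none passed, the 3 with the smallest p. Cirbp, Rbm3 and the gene most alike to each member are also named, and other list genes with values were chosen after their values were seen. Motifs were searched in RefSeq promoter windows, and shared stretches in GENCODE M21 transcripts. Depths of 5198748 to 13610729 counts leave genes with few counts imprecise, and counting intervals were not computed.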

Additional observations from a re-analysis of the deposited data

Results flagged for a closer look

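In the 30 groups of 4 mice tested for a single distant value of a member's CPM, 2 held one, both among young AL mice. Chance gives about 1 in 20 groups. Dnajb1 was at 48.57 CPM in the first young AL mouse and at 58.5 to 60.2 CPM in the other 3. Hsp90aa1 was at 209.8 CPM in the fourth young AL mouse and at 234.9 to 238.3 CPM in the other 3. Neither is the mouse that stood apart in its library.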

How the results depend on the processing

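Members passed the FDR of 0.1 under 2 settings. With every gene of at least 1 count kept, 1 member passed with age in AL mice (Hspa5, log2 fold change 0.47), and averaging age over both diets, chosen after seeing the data, gave 1 (Hspa1a, or Hspa8 without the fourth old AL mouse). The first setting, whose error for Hspa5 was below the spread between mice, also called 4 genes of the wider list in AL mice (Cryab, Calr, Sdf2l1 and Xbp1) and 1 in EOD mice, and of all genes 444 and 100 for age, 26 and 27 for diet in young and old mice and 26 for the interaction. Averaging called 3 genes of the wider list and 365 of all genes. DESeq2 called 1 gene of the wider list (Cryab) and 70 of all genes with age in EOD mice, and 1 gene with diet in young mice. Lane as a covariate called 2 genes with diet in old mice, and a fit of only the 2 AL groups called 86 with age. The causes were not tested.

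Estimates near 0 changed sign. Hsp90aa1 with diet in old mice became −0.0011, −0.0035 and −0.0034 (every gene kept, at least 10 counts in every mouse, lane), Hspa8 with diet in young mice −0.00012 (at least 10 counts), and Hsp90aa1 with age in AL mice 0.019 (lane).

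Replicate numbers did not mark pairs: the mean correlation of same-numbered mice was −0.0711 to −0.00832, and 3 of 15 mice were most like their own number. With the replicate block no member changed its call. Signs changed for Hsp90aa1 with age in EOD mice (0.0020), with diet in young mice (−0.0085) and in the interaction (0.013), and for Hspd1 with age in EOD mice (0.0034).

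Leaving out each mouse in turn called 102 to 221 of all genes with age in AL mice, 19 to 76 with age in EOD mice, and 0 to 1 of the wider list in AL mice. The log2 fold changes that changed sign ranged as follows. With age in AL mice they were Hsp90aa1 −0.068 to 0.025. With age in EOD mice they were Hspa5 −0.095 to 0.21, Hsph1 −0.015 to 0.13, Hsp90aa1 −0.061 to 0.032, Hspd1 −0.062 to 0.059 and Hspe1 −0.079 to 0.16. With diet in young mice they were Hspa8 −0.059 to 0.084, Hsph1 −0.12 to 0.025, Dnajb1 −0.076 to 0.010, Hsp90aa1 −0.038 to 0.055 and Hspb1 −0.63 to 0.36. With diet in old mice they were Hspa1b −0.29 to 0.097, Hspa5 −0.29 to 0.10, Dnajb1 −0.038 to 0.12, Hsp90aa1 −0.032 to 0.062, Hspd1 −0.0095 to 0.13 and Hspe1 −0.16 to 0.0073. In the interaction they were Hspa1b −0.035 to 0.43, Hsph1 −0.11 to 0.039, Dnajb1 −0.020 to 0.14, Hsp90aa1 −0.052 to 0.055 and Hspb1 −0.76 to 0.24.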

Other observations

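Spread between mice exceeded the spread of like genes for both temperature-responsive genes. The SD of Cirbp within groups was 0.278 on the log2 CPM scale, above that of 96.8% of the 500 genes nearest in level. For Rbm3 it was 0.352, above 95%, and 0.211, above 61.2%, without the third young AL mouse, in which Rbm3 was at 25.3 CPM against 9.96 to 17.2 CPM in the other young mice. Choroid plexus markers summed to 311 to 1192 CPM per mouse and red blood cell markers to 27.9 to 100.7 CPM.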
